A study of Mus musculus with 70 samples.

Results

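Thyroid hormone acts in a cell only after it has crossed the membrane and after its iodine atoms have been trimmed in the right place. The 9 genes described here encode that gate: the deiodinases Dio1, Dio2 and Dio3, the plasma membrane transporters or transporter subunits Slc16a10, Slco1c1, Slc7a5, Slc7a8 and Slc3a2, and Crym, which encodes a cytosolic protein that binds T3. They were chosen by symbol from the 22835 genes of the pituitary RNA-seq table, with the transcript of highest mean abundance standing for each gene. Of the 9, 5 had more than 1 CPM (read counts scaled to a common library total) in all 18 libraries and entered the model, which held 13145 genes. Dio1 and Crym entered a second model of genes above 1 CPM in at least 4 libraries, and Dio3 and Slco1c1 lay below that limit as well.

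RNA-seq was made from pituitaries of adult male C57BL/6J mice, 3 pituitaries pooled per library, in 4 wild-type hypothyroid, 4 wild-type hyperthyroid, 5 Thrb-KO hypothyroid and 5 Thrb-KO hyperthyroid libraries. By the methods of the study, mice received methimazole (MMI, 0.05%) and potassium perchlorate (1%) through drinking water over 4 to 5 weeks, and the hyperthyroid (+T3) mice also received 0.5 μg/ml T3 for the final week, so that no RNA-seq group was untreated. Thrb-KO mice lack the thyroid hormone receptors of the Thrb gene from the germline, in every cell. Binding of the receptor TRβ-HAB was read from peak lists of untreated mice, merged from 3 HAB;BirA and 3 BirA libraries each of pituitary (about 12 glands pooled per library) and cerebral cortex. In HAB;BirA mice (ThrbHAB/HAB; Rosa26BirA/BirA) a tag on TRβ is biotinylated by the ligase BirA and captured with streptavidin, and BirA mice serve as the control. The genotype label of the untreated BirA libraries repeats that of HAB;BirA although their titles read BirA, and all carry the strain label C57BL/6J although the methods describe mixed backgrounds. Open chromatin came from a list of T3-regulated ATAC peaks in nuclei of Rosa26Sun1-GFP; Thrb2-Cre mice, purified by a nuclear tag that the Cre switches on in anterior pituitary cells, with 4 MMI and 4 MMI + T3 libraries.

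Dio2 and Dio1 encode enzymes that remove an outer-ring iodine from the prohormone T4 and so make T3, while the Dio3 enzyme removes an inner-ring iodine and inactivates both T4 and T3. Type 2 deiodinase, the Dio2 product, is known as a local source of T3 in thyrotrophs, where thyroid hormone restrains thyrotropin. Slc7a8 (LAT2) and Slc7a5 (LAT1) are light chains of amino acid exchangers that also carry iodothyronines, and each works as a heterodimer with the heavy chain encoded by Slc3a2 (4F2hc). Slc16a10 (MCT10) is a monocarboxylate transporter family member that carries aromatic amino acids and T3, and Slco1c1 (OATP1C1) is the T4 transporter of the blood-brain barrier.

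Whole reads recovered from the CPM values numbered 21453548 to 55273749 per library (median 34673225). Replicates 1 and 2 of each group stood apart from replicates 3 to 5, for example with 2571 to 3420 CPM of the mitochondrial tRNA synthetase gene Lars2 against 53.2 to 95.1 CPM, and values are given for each library set where it changed a call or moved a called value by over 1.5 times. Thrb, the targeted gene, averaged 256.7 ± 27.3 CPM (SD, n = 4) in hypothyroid wild type and 270.8 ± 20.1 (n = 5) in the hypothyroid libraries labelled Thrb-KO. Under T3 it averaged 104.1 ± 22.8 CPM in wild type and 260.2 ± 32.0 CPM in Thrb-KO. The Thrb-KO label thus came with no loss of Thrb reads, and since reads were counted over the whole transcript and the exons deleted are not given in the sources used here, Thrb reads do not check the genotype. Thrb-KO below means the libraries that carry this label. Groups were compared with limma, and genes that changed at least 1.5-fold with a Benjamini-Hochberg p below 0.05, adjusted over the whole model, were called. Fold changes are on the log2(CPM + 1) scale. CPM values are not divided by transcript length, so levels are compared between groups and not between genes.

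The Dio2 promoter and the best repeats in TRβ-HAB peaks within 100 kb of Dio3, Dio1 and Crym are the sequences the results below refer to. A regulatory role of these repeats was not tested. The 250 bases before the annotated Dio2 start (RefSeq, GRCm38.p6, chr12:90739039-90739288, minus strand) are printed 5′ to 3′ because Dio2 changed most of all members. Capitals mark the cAMP response element TGACGTCA, which begins 95 bases before the start, and a TATAAA box 30 bases before it.
Dio2 promoter: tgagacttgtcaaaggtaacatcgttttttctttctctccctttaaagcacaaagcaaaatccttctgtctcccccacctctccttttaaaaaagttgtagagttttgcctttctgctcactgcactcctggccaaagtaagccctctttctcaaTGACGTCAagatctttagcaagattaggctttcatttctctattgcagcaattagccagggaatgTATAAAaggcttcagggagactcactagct
The element TGACGTCA was found in 588 of 32851 mouse promoters of 300 bases (1.79%), and among the 7 members with a promoter entry (all but Slc7a5 and Crym) only in that of Dio2. TATAAA, sought on both strands and free of overlap with the first element, was in 13.6% of all promoters and in those of Dio2, Dio3 and Slco1c1. It began 31 bases before the start in Dio3, but 2 bases after the start in Slco1c1. The receptor half-site AGGTCA, on either strand, was in 16.3% of all promoters and in none of the 7.

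TRβ binds DNA with its partner RXR at direct repeats of AGGTCA separated by 4 bases (DR4). The pituitary TRβ-HAB peak nearest to Dio3, at chr12:111493851-111494150 (mm9, plus strand shown), held such a repeat with 11 of its 12 fixed bases. It is printed whole, with the bases of the repeat that match in capitals.
Dio3 upstream peak: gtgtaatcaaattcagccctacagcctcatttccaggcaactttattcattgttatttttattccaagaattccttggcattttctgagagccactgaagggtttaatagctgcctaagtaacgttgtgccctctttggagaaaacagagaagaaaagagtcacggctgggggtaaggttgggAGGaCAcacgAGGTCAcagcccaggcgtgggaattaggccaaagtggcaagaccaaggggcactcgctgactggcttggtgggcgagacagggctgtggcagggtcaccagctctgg
The other repeats with at most 2 mismatches in peaks within 100 kb of a member are printed alone, read 5′ to 3′ on the strand of the match, with matching bases in capitals.
Dio3 downstream, chr12:111613420-111613435, plus strand: AGGTCAgattgGGTCA
Crym side, chr7:127252942-127252957, minus strand: AtGTCAaccgAGGTCA
Dio1 side, chr4:106875830-106875845, minus strand: AGGgCAgctgAGGTgA

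Dio2 was the member with the strongest response to T3, and the response was smaller in Thrb-KO. In hypothyroid wild-type pituitaries Dio2 measured 917, 974, 1175 and 1209.8 CPM. With T3 it measured 32.9, 38.2, 37.2 and 39.3 CPM in the 4 wild-type libraries. In Thrb-KO it measured 806, 761, 631, 627 and 621 CPM in the hypothyroid libraries and 182, 207, 159, 174 and 137 CPM in the hyperthyroid libraries. No 2 of the 4 groups overlapped, and their order was hypothyroid wild type, hypothyroid Thrb-KO, hyperthyroid Thrb-KO and hyperthyroid wild type, from high to low. The means were 1069 ± 145 and 36.9 ± 2.80 CPM in wild type (SD, n = 4) and 689 ± 87.4 and 172 ± 26.0 CPM in Thrb-KO (SD, n = 5).

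T3 lowered Dio2 28.1-fold in wild type (log2 change −4.81 ± 0.13 SE, limma adjusted p = 2.11e-14) and 4.01-fold in Thrb-KO (−2.0 ± 0.11, adjusted p = 6.35e-09). The difference between these responses was 2.81 ± 0.17 on the log2 scale (limma interaction, adjusted p = 1.00e-08). Under T3, Thrb-KO held 4.52 times the Dio2 of wild type (log2 difference 2.18 ± 0.12, limma adjusted p = 1.05e-09). In hypothyroid mice the sign was opposite, with Dio2 1.55-fold lower in Thrb-KO (−0.63 ± 0.12, limma adjusted p = 0.00265). This last difference was near the 1.5-fold limit, and with the replicate number as a block it was −0.57 (adjusted p = 0.00261) and no longer called. It was also unequal between the library sets, −0.27 in replicates 1 and 2 and −0.93 in replicates 3 to 5, and it dropped under the limit without hypothyroid wild-type replicate 3 (−0.58) or 4 (−0.57). The T3 responses were alike in both sets, at −4.70 and −4.93 in wild type and −2.01 and −2.0 in Thrb-KO.

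**Figure D1:**
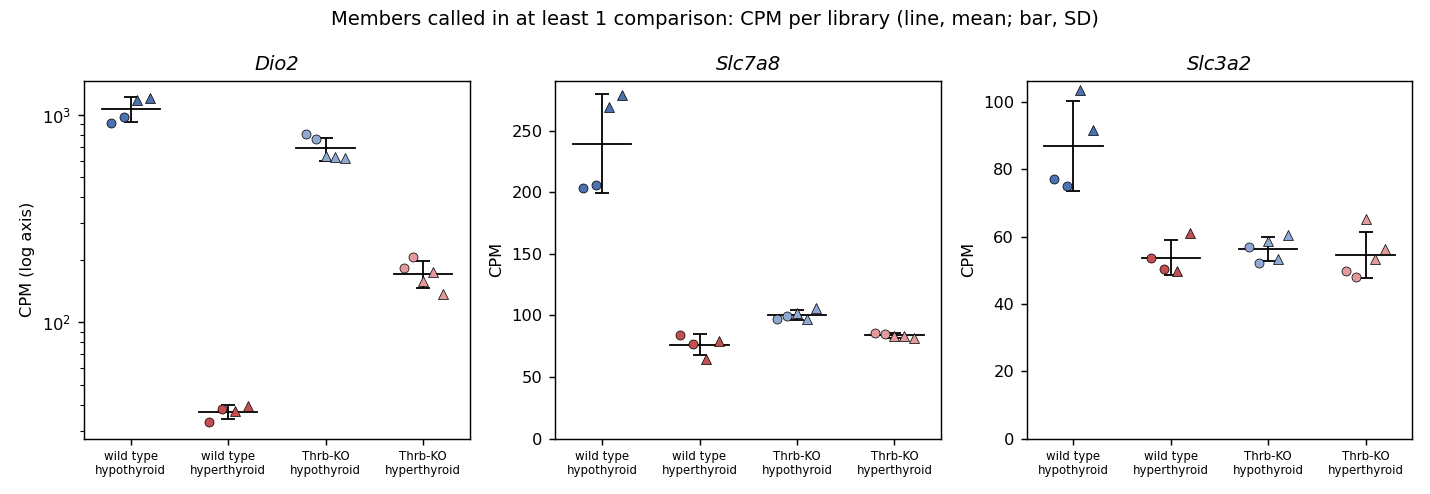
CPM of Dio2 (log axis), Slc7a8 and Slc3a2 (linear axes from 0) in each RNA-seq library of the 4 groups. Circles are replicates 1 and 2, triangles replicates 3 to 5, lines the group mean and bars its SD. Hypothyroid wild type is the highest group for each gene, and only Dio2 has a hyperthyroid Thrb-KO group (137 to 207 CPM) clear of hyperthyroid wild type (32.9 to 39.3 CPM).

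Dio2 is itself a thyrotroph marker, and Tshb, Cga and Trhr also fell with T3 in both genotypes, while Rxrg was not called. Rxrg averaged 56.6 CPM in hypothyroid and 42.4 CPM in hyperthyroid wild type. Between genotypes under T3, Dio2 and Trhr were called higher in Thrb-KO, and Tshb, Cga and Rxrg were not called. Of the 5 thyrotroph markers (Tshb, Cga, Trhr, Dio2 and Rxrg), 4 fell with T3 in wild type and the same number in Thrb-KO. The summed level of the 5 was 9961 to 18780 CPM in hypothyroid and 1269 to 2160 CPM in hyperthyroid wild type, and 9429 to 11940 and 1689 to 1801 CPM in Thrb-KO. Tshb, the thyrotropin β subunit, fell 31.0-fold in wild type and 28.4-fold in Thrb-KO, and Trhr, the receptor for thyrotropin-releasing hormone, fell 16.9-fold and 4.10-fold. In whole pituitary a smaller number of thyrotrophs and less RNA per thyrotroph cannot be told apart, and the part of thyrotroph number in the Dio2 values was not tested. Trhr and Dio2 were the thyrotroph markers with a called difference in response between genotypes (limma interaction, Trhr 2.04 ± 0.17, adjusted p = 4.99e-07).

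Dio3 was nearly silent, yet its few reads were higher under T3 in wild type. It measured 0.656, 0.466, 0.0230 and 0.145 CPM in hypothyroid wild type, which is 1 to 23 reads per library. Hyperthyroid wild type measured 0.765, 0.659, 1.26 and 1.02 CPM, or 24 to 39 reads. In Thrb-KO the hypothyroid libraries had 0.0905 to 0.615 CPM and the hyperthyroid libraries 0.158 to 0.584 CPM, so that these groups overlapped. The wild-type groups did not overlap, although the highest hypothyroid library (0.656 CPM) and the lowest hyperthyroid library (0.659 CPM) were nearly equal. The difference of 0.603 CPM gave p = 0.0286 in an exact two-sided permutation test of 4 against 4 libraries, the smallest p it can give, and the test was chosen after the values were seen. The difference was 0.151 CPM in replicates 1 and 2 and 1.06 CPM in replicates 3 and 4. Whether the response differed between genotypes was not tested.

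Dio1, the other activating deiodinase, stayed at 0.434 to 1.31 CPM in all 18 libraries, with 14 to 54 reads. The group means were 0.896 ± 0.294, 0.802 ± 0.210, 0.759 ± 0.212 and 0.914 ± 0.262 CPM (SD) in hypothyroid and hyperthyroid wild type and hypothyroid and hyperthyroid Thrb-KO, and all 4 groups overlapped. T3 changed Dio1 by −0.07 on the log2 scale in wild type, with a 95% confidence interval of −0.35 to 0.21, and by 0.12 (−0.13 to 0.37) in Thrb-KO. None of the 5 comparisons called it in the second model (limma adjusted p = 0.730 to 1).

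Slc7a8, the LAT2 light chain, was high in hypothyroid wild type and lower in the other 3 groups. It measured 203, 206, 269 and 279 CPM in hypothyroid wild type and 84.0, 77.2, 64.6 and 79.3 CPM in hyperthyroid wild type. The Thrb-KO libraries lay at 97.3, 99.8, 102, 97.1 and 106 CPM without T3 and at 86.0, 85.1, 83.4, 83.1 and 81.4 CPM with T3. Every hypothyroid wild-type library lay far above all 14 others, whose highest value was 106 CPM. T3 lowered Slc7a8 3.09-fold in wild type (−1.63 ± 0.10, limma adjusted p = 1.78e-09).

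In Thrb-KO the Slc7a8 groups also did not overlap, but the difference was small, −0.26 with a 95% confidence interval of −0.45 to −0.07, and it was not called (limma adjusted p = 0.253). The responses of the genotypes differed by 1.37 ± 0.14 (limma interaction, adjusted p = 4.28e-06). The genotypes differed in hypothyroid mice, where Slc7a8 was 2.34-fold lower in Thrb-KO (−1.23 ± 0.10, limma adjusted p = 1.68e-07). Under T3 the difference was 0.14 (interval −0.06 to 0.34, limma adjusted p = 0.402). The library sets gave the same directions, with a wild-type response of −1.34 in replicates 1 and 2 and −1.92 in replicates 3 to 5.

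Slc3a2, the heavy chain that pairs with Slc7a8 and Slc7a5, was also highest in hypothyroid wild type, at a smaller amplitude. Its most abundant transcript measured 77.1, 75.1, 103 and 91.8 CPM in hypothyroid wild type and 53.7, 50.2, 49.8 and 61.0 CPM in hyperthyroid wild type. The hypothyroid Thrb-KO libraries had 56.9, 52.0, 58.7, 53.3 and 60.4 CPM, and the hyperthyroid ones 49.8, 48.0, 65.3, 53.3 and 56.4 CPM. The hypothyroid wild-type libraries lay above all 14 others, which overlapped one another. T3 lowered Slc3a2 1.60-fold in wild type (−0.68 ± 0.11, limma adjusted p = 1.98e-04) and gave −0.05 in Thrb-KO (interval −0.26 to 0.16, limma adjusted p = 1). The difference between the responses was 0.63 ± 0.15 (limma interaction, adjusted p = 0.0164). In hypothyroid mice Slc3a2 was 1.52-fold lower in Thrb-KO (−0.61 ± 0.11, limma adjusted p = 0.0011), and under T3 the difference was 0.02 (interval −0.20 to 0.24).

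These Slc3a2 changes lie close to the 1.5-fold limit. The T3 response in wild type became −0.58 after scaling by TMM factors and −0.54 in replicates 1 and 2 alone, and the interaction became 0.55 and 0.39, each below the limit with an adjusted p under the threshold. Replicates 3 to 5 alone gave −0.81 for the T3 response in wild type (limma adjusted p = 0.00146) and 0.83 for the interaction (adjusted p = 0.0215), both called. The genotype difference in hypothyroid mice was −0.48 in replicates 1 and 2, below the limit, and −0.75 in replicates 3 to 5. A second Slc3a2 transcript had nearly equal values (84.4 ± 13.5 CPM in hypothyroid wild type against 86.8 ± 13.3 for the first), so that reads common to both cannot be assigned to one of them. Across the 18 libraries the log2 values of Slc7a8 and Slc3a2 had a Pearson r of 0.92 and those of Slc7a8 and Dio2 an r of 0.74, as a description of libraries that share groups and library sets.

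Slc7a5, the other light chain of Slc3a2, was not called in any comparison. Its means were 17.5 ± 5.47 and 14.9 ± 2.14 CPM in hypothyroid and hyperthyroid wild type (SD, n = 4) and 18.5 ± 2.63 and 17.4 ± 2.30 CPM in Thrb-KO (SD, n = 5). All 4 groups overlapped. The T3 response was −0.18 in wild type (interval −0.54 to 0.17, limma adjusted p = 0.568) and −0.09 in Thrb-KO (−0.41 to 0.23), so that a wild-type fall as large as that of Slc7a8 lies outside the interval. The wild-type value rested on the library set and on 1 library, at −0.37 in replicates 1 and 2 (limma adjusted p = 0.0269, below 1.5-fold), 0.01 in replicates 3 to 5 (adjusted p = 0.974) and −0.01 without hypothyroid wild-type replicate 1. Replicates 1 and 2 were higher than the others in hypothyroid wild type, with 24.6 and 19.1 CPM against 13.3 and 13.1 CPM.

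**Figure D2:**
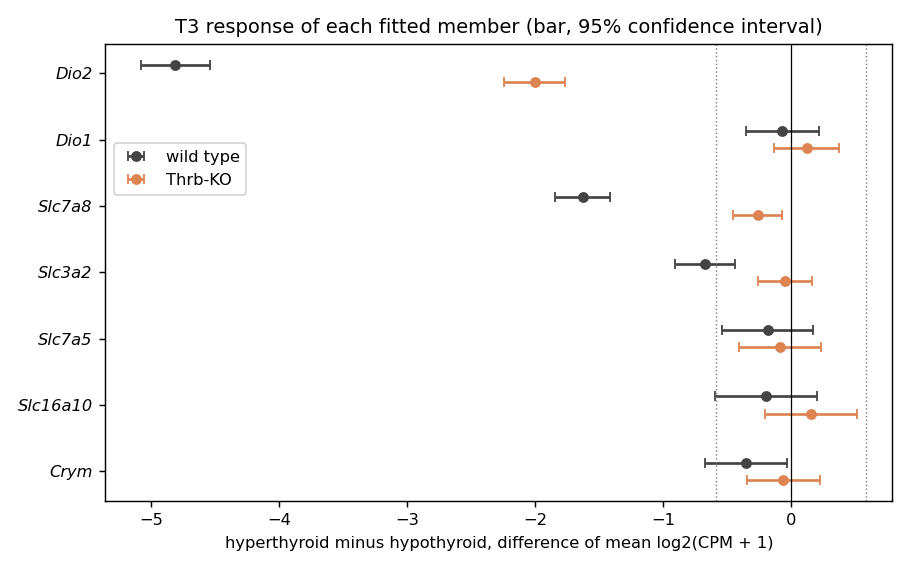
Hyperthyroid minus hypothyroid difference of mean log2(CPM + 1) for the 7 members that could be fitted, in wild type (black) and Thrb-KO (orange), with 95% confidence intervals as bars. The dotted lines mark 1.5-fold in each direction. In wild type Dio2 (−4.81), Slc7a8 (−1.63) and Slc3a2 (−0.68) lie beyond the limit, and in Thrb-KO Dio2 (−2.0) alone does.

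Slc16a10 was expressed at a low level and was not called in any comparison. It measured 3.85, 4.61, 2.36 and 2.28 CPM in hypothyroid wild type and 2.90, 3.96, 1.58 and 2.49 CPM in hyperthyroid wild type. The Thrb-KO libraries had 1.25 to 2.29 CPM without T3 and 1.73 to 2.34 CPM with T3. The hypothyroid groups just touched, with 2.28 CPM as the lowest wild-type and 2.29 CPM as the highest Thrb-KO library, and in both wild-type groups replicates 1 and 2 were the higher pair. The hypothyroid difference between genotypes was −0.60 ± 0.18 (limma adjusted p = 0.0507), short of the threshold. With the replicate number as a block it was −0.61 (adjusted p = 0.00321) and called. It was −0.74 in replicates 1 and 2 alone (limma adjusted p = 0.00277, called) and −0.41 in replicates 3 to 5 (adjusted p = 0.126, not called). The T3 response was −0.20 in wild type (interval −0.60 to 0.20) and 0.15 (−0.20 to 0.51) in Thrb-KO.

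Slco1c1 was at the edge of detection, with 0 to 0.357 CPM. The library with most had 13 reads, the next 9, and the remaining 16 had 3 reads or fewer, which is the number taken here as the limit of detection. No comparison was made. Crym had 0.495 to 1.76 CPM and 17 to 72 reads per library. Its group means were 1.22 ± 0.376 and 0.730 ± 0.180 CPM in hypothyroid and hyperthyroid wild type, and 1.20 ± 0.412 and 1.10 ± 0.288 CPM in Thrb-KO (SD). The wild-type difference of −0.35 (interval −0.67 to −0.03) had a limma adjusted p of 0.126 in the second model, and the ranges overlapped.

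**Figure D3:**
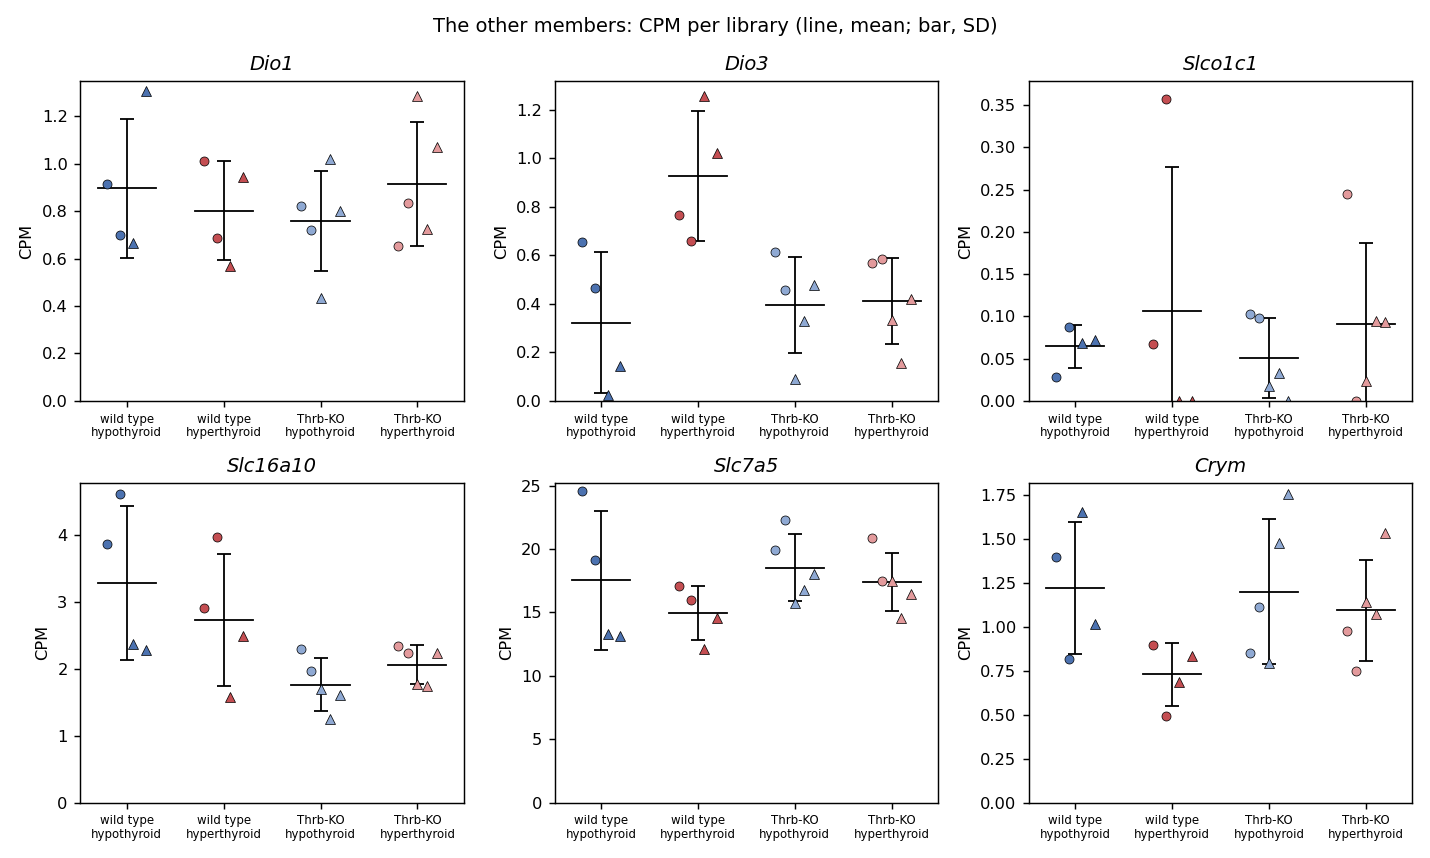
CPM (linear axes from 0) of the 6 members without a call, in each RNA-seq library, with circles for replicates 1 and 2, triangles for replicates 3 to 5, lines for group means and bars for the SD. Dio3 shows hyperthyroid wild type (0.659 to 1.26 CPM) above the other 3 groups, all of which stay below 0.66 CPM, and Slco1c1 stays at or below 0.357 CPM.

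Counted over the 5 members of the main model, 3 were called for T3 in wild type (Dio2, Slc7a8 and Slc3a2, all lower), against 9.46% of the 13145 genes. For T3 in Thrb-KO 1 member was called (Dio2), against 1.01% of genes. For the difference between the responses 3 were called, against 4.26% of genes. Between genotypes 3 were called in hypothyroid mice (the same 3 genes, all lower in Thrb-KO), against 3.02% of genes, and 1 in hyperthyroid mice (Dio2, higher), against 4.86%. These comparisons share libraries, so their counts are not independent. The members were also chosen with earlier results of these data known, so the counts and medians do not test the set against all genes. The median log2 change of the 5 members and of all genes was −0.68 and −0.04 for T3 in wild type, −0.09 and −0.01 in Thrb-KO, and −0.61 and 0.03 for genotype in hypothyroid mice. In the second model the same rule called 10.4% of 14472 genes for T3 in wild type, 1.33% for T3 in Thrb-KO, 5.13% for the difference between the responses, 3.54% for genotype in hypothyroid and 5.65% in hyperthyroid mice, and neither Dio1 nor Crym.

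The genotype differences in hypothyroid mice came with a lower level of macrophage markers. Of the 5 macrophage markers in the model, 4 (Csf1r, C1qa, C1qb and Cx3cr1) were called lower in Thrb-KO, against 2.01% of all genes. The summed level of the list was 107 to 124 CPM in hypothyroid wild type and 60.5 to 74.4 CPM in hypothyroid Thrb-KO. Under T3 the sums were 76.3 to 134 CPM in wild type and 64.5 to 81.8 CPM in Thrb-KO. Of the corticotroph and melanotroph markers 1 of 5 (Pcsk2) and of the mural and fibroblast markers 1 of 7 (Col1a2) were also called lower. Other markers of both lists went in each direction, and the median log2 changes of the lists were −0.003 and −0.082. The part of macrophages or other cells in the lower Slc7a8, Slc3a2 and Dio2 of hypothyroid Thrb-KO was not tested. For T3 in wild type the markers called outside thyrotrophs were Gh (2.04-fold higher), Prl (3.25-fold higher), Col1a1 (1.66-fold lower) and Slc17a7 (2.15-fold higher). No endothelial, pituicyte or red blood cell marker was called in any comparison (8, 7 and 3 markers in the model, limma), where 1.01% to 9.46% of all genes were called. Lists this short would hold few calls at those shares. The summed red blood cell level was still 28.5 to 55.5 CPM in hypothyroid and 65.7 to 77.7 CPM in hyperthyroid wild type (median log2 change 0.68). In Thrb-KO it was 24.4 to 61.6 and 25.1 to 80.8 CPM. Between genotypes under T3, 1 of 4 gonadotroph markers (Nr5a1) was called higher in Thrb-KO, against 2.54% of all genes. Fshb, Lhb and Gnrhr had lower means there, and the list median was −0.057. Called lower were 1 of 5 macrophage markers (C1qa, list median −0.325) and 1 of 5 stem and folliculostellate markers (Aldh1a2, list median −0.224), against 2.32% of all genes.

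Other genes of hormone transport and binding were mostly too low to test. Of 16 listed, 5 entered the main model and 1 of these was called for T3 in wild type, against 9.46% of all genes. It was Ttr, the gene of the T4 carrier transthyretin. Ttr averaged 12.5 ± 4.28 CPM in hypothyroid and 2.02 ± 1.09 CPM in hyperthyroid wild type (4.50-fold lower, limma adjusted p = 4.45e-07), and 6.87 ± 0.750 and 1.51 ± 0.178 CPM in Thrb-KO (3.14-fold lower, adjusted p = 2.18e-05). Slco4a1 was higher in Thrb-KO under T3 (8.30 ± 1.21 against 4.56 ± 0.113 CPM, limma adjusted p = 1.11e-04).

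Slc22a8 and Serpina7 of that list were called in the second model. Slc22a8 (OAT3), an organic anion transporter, measured 0.597 to 1.14 CPM in hypothyroid and 6.12 to 9.35 CPM in hyperthyroid wild type, and 0.953 to 1.40 and 1.45 to 2.58 CPM in Thrb-KO. It rose 4.49-fold with T3 in wild type (limma adjusted p = 9.60e-10), and the response of Thrb-KO was smaller by 1.69 on the log2 scale (interaction −1.69 ± 0.18, adjusted p = 5.43e-06). Serpina7, which encodes thyroxine-binding globulin, fell 1.83-fold with T3 in wild type (limma adjusted p = 8.87e-05) and was higher in Thrb-KO than in wild type both without T3 (1.53-fold, adjusted p = 0.00497) and with T3 (2.02-fold, adjusted p = 1.80e-05). Its interaction was not called (limma adjusted p = 0.270).

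The amino acid exchangers and carriers related to the LAT transporters moved in both directions in wild type. Of 20 listed, 17 were in the model. In wild type T3 raised 3 (Slc16a1, Slc1a5 and Slc7a10) and lowered 4 (Slc16a3, Slc43a1, Slc1a4 and Slc38a1), against 3.87% and 5.59% of all genes. None was called for T3 in Thrb-KO, where 1.01% of all genes were. Slc43a1, the System L carrier LAT3, fell from 11 ± 2.27 to 5.13 ± 1.58 CPM (2.00-fold, limma adjusted p = 3.70e-04). Slc38a1, a glutamine carrier, fell from 340 ± 37.4 to 165 ± 38.6 CPM (2.09-fold, adjusted p = 7.29e-05), and Slc1a5, a neutral amino acid exchanger, rose from 19.1 ± 0.866 to 31.5 ± 4.33 CPM (1.61-fold, adjusted p = 5.38e-05). The responses differed between genotypes by the interaction for 3 of the 17 (Slc16a3, Slc16a1 and Slc38a1), against 4.26% of all genes.

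The genes that make and turn over deiodinase protein were not called by limma in any of the 5 comparisons. Over all genes of the model 1.01% to 9.46% were called, and lists this short would hold few calls at those shares. None of the 12 selenoprotein synthesis genes, which insert the selenocysteine of the deiodinase active site, passed, with median changes between −0.08 and 0.05. The same held for the 8 measured genes of type 2 deiodinase ubiquitination and its removal (medians −0.05 to 0.05) and for both iodothyronine conjugation and iodide recovery genes in the model. Of the 10 conjugation and recovery genes in the table the other 8 were below 1 CPM in some library. Changes in enzyme protein or activity were not measured.

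Among the 13145 genes the libraries' log2 values of Dio2 were most alike to those of Bdnf (Pearson r = 0.973), Scg3 (0.971) and Gpc4 (0.970), over 18 libraries. Slc7a8 was most alike to Creb3l1 (0.982), Tnfrsf23 (0.978) and Pon2 (0.976), and Slc3a2 to Yipf3 (0.971), Arhgap36 (0.949) and Edem2 (0.949). These values describe libraries that share groups and library sets, and the genes were picked for them.

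TRβ-HAB peaks of untreated mice were sought at each locus, to see whether the receptor was bound near the members. All RNA-seq groups were treated, and binding in mice given MMI or MMI + T3 was not examined. Within 20 kb of the gene body, 1 of the 9 members had a pituitary peak, against 41.3% of the 12898 main-model genes placed on mm9. No member had a cerebral cortex peak there, against 34.9% of genes, nor a T3-regulated ATAC peak, against 7.79%. Dio1, Dio3, Slco1c1 and Crym were too low for the main model, so these shares come from genes expressed above them and are not matched for level. The pituitary peak was at Slc7a5, at chr8:124405601-124406000, in an untranslated exon near the 3′ end of the gene (Slc7a5, minus strand, chr8:124405052-124431594). It held 15 HAB;BirA reads and 2 BirA reads after merging, a 6.26-fold excess by the authors' scaling. Its best repeat matched 8 of the 12 fixed DR4 bases. Reads were merged by genotype before peaks were called, so single peaks carry no error between replicates.

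The members that responded most to T3 had no TRβ-HAB peak of untreated mice, and no T3-regulated ATAC peak, within 20 kb. Dio2 (chr12:91962994-91976878, minus strand) had no peak of any list within 100 kb. Its nearest pituitary TRβ-HAB peak lay 157194 bp away, with 14 reads against 1, and the nearest T3-regulated ATAC peak lay 2285291 bp away. Slc7a8 (chr14:55341053-55400723, minus strand) had its nearest pituitary peak at 80453 bp, with 13 reads against 2, 249 bp from the start of Cdh24. Slc3a2 (chr19:8781372-8797859, minus strand) had its nearest at 96322 bp, with 15 reads against 2. That peak, at chr19:8684751-8685050, lay in a coding exon of Slc22a8, the organic anion transporter that rose with T3 in wild type. Its nearest protein-coding start was that of Slc22a6, 7586 bp away, and a link of the peak to Slc22a8 RNA was not tested.

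**Figure D4:**
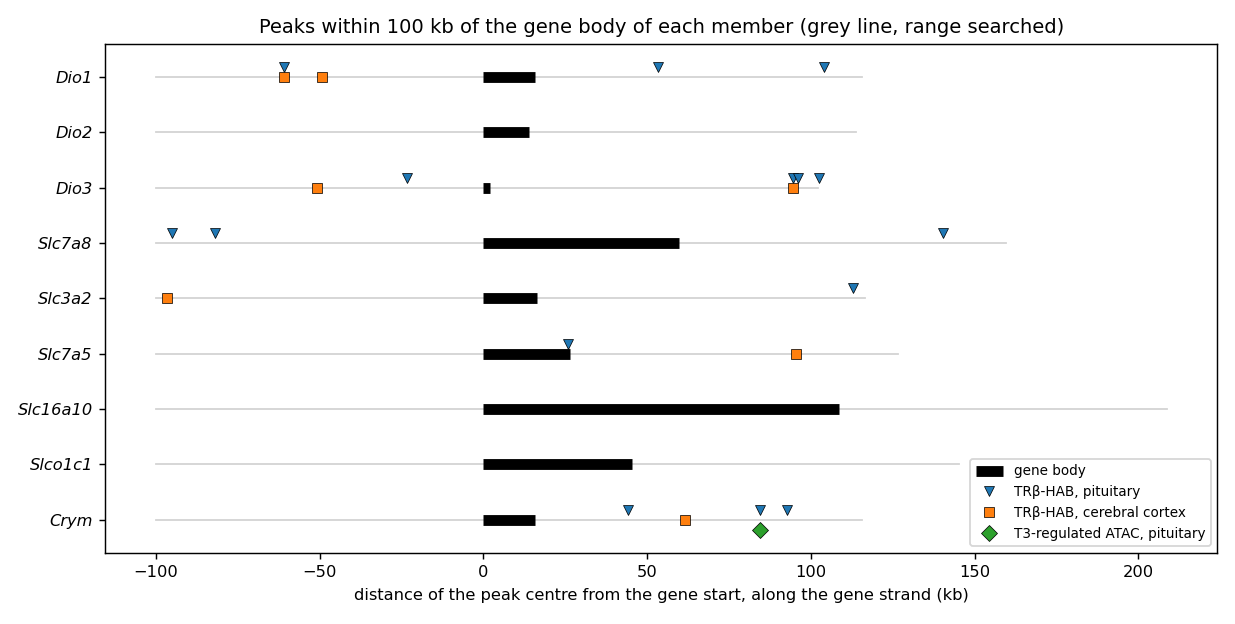
Peaks within 100 kb of each member's gene body, by distance of the peak centre from the gene start along the gene's strand in kb. Black bars are gene bodies, grey lines the range searched, blue triangles pituitary TRβ-HAB peaks, orange squares cerebral cortex TRβ-HAB peaks and green diamonds T3-regulated ATAC peaks. Dio2, Slc16a10 and Slco1c1 have none, and the pituitary peak at Slc7a5 is the one inside a gene body.

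Dio3 (chr12:111517278-111519307, plus strand) had the densest set, with 4 pituitary and 2 cortex peaks within 100 kb. The peak printed above lay 23128 bp upstream, held 23 HAB;BirA reads against 1 control read (19.2-fold, false discovery rate 3.41e-22) and overlapped no cortex peak. Its nearest start of a protein-coding gene was that of Dio3, and non-coding genes were not considered. Of the 1451 pituitary peaks of this width, 4.69% held a repeat with at least 11 of 12 bases. The downstream cluster began at 92244 bp with a peak of 86 reads against 8, which a cortex peak of 111 reads against 7 overlapped at the same start. The peak with the downstream repeat printed above (chr12:111613151-111613700) held 54 reads against 7, and its nearest protein-coding start was that of Ppp2r5c. No T3-regulated ATAC peak lay within 100 kb, the nearest being 195876 bp away.

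Crym (chr7:127329894-127345625, minus strand) had 3 pituitary peaks and 1 cortex peak on its downstream side. A pituitary peak at chr7:127261051-127261350, with 19 reads against 2, overlapped a T3-regulated ATAC peak (chr7:127260997-127261444), and both lay in an intron of Tmem159. This was the sole ATAC peak within 100 kb of a member. The repeat printed for Crym came from a neighbouring peak in the same intron, with 14 reads against 1, 76844 bp from Crym. Dio1 (chr4:106964070-106979774, minus strand) had 3 pituitary and 2 cortex peaks, the nearest 37620 bp away and 152 bp from the start of Hspb11. A peak over a coding exon of Tmem48, 60877 bp from Dio1, was found in both tissues, with 15 reads against 1 in pituitary and 13 against 0 in cortex. The repeat printed for Dio1 came from an intergenic pituitary peak 88120 bp from Dio1, with 27 reads against 0. Its nearest protein-coding start was that of Ldlrad1, 5935 bp away.

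Over all 22 TRβ-HAB peaks within 100 kb of a member, the nearest start of a protein-coding gene belonged to another gene for 19. Repeats with at most 2 mismatches were in 4 of the 15 pituitary peaks (26.7%), where 20.9% of all 8051 pituitary peaks held one, and in none of the 7 cortex peaks, where 9.3% of 5164 did. In the range of 20 kb there was 1 peak and no such repeat. A match is a description of the sequence and not a measured site. Slc16a10 and Slco1c1 had their nearest pituitary peaks 341891 and 201157 bp away.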

How the data were processed

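RNA-seq values were deposited as CPM for RefSeq transcripts. The authors mapped single-end reads to RefSeq transcripts of mm9 with BBMap and scaled read counts to the same total in each library, with no division by transcript length. Each value was a whole multiple of 1 read (100% within a tolerance of 0.1 reads). The labels name a pair of library kits without saying which library used which. The deposited TRβ-HAB lists hold positions, read counts of the merged HAB;BirA and BirA libraries, p-values and false discovery rates, and a fold ratio scaled by the authors, who called peaks with SICER (1.1 in the submitters' processing notes). The ATAC list gives positions and adjusted p-values from the authors' own comparison of hyperthyroid with hypothyroid samples, and only its positions were used. ChAP-seq of treated mice and histone ChIP-seq were not analysed here.

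The members and lists were chosen with earlier results of these data known. Genes above 1 CPM in all 18 libraries were fitted as log2(CPM + 1) in 1 model of the 4 groups (limma 3.58.1, R 4.3.3), with 5 contrasts and Benjamini-Hochberg adjustment over 13145 genes. Genes named outside the set were the called genes of the pathway and marker lists and the 3 most alike to each called member. Libraries are pools of 3 pituitaries, and no source says whether the pools of a group were processed separately. Libraries with the same replicate number deviated together (25 of 25 pairs had a correlation above 0.1, from 0.13 to 0.82, median 0.53). Pairs with another number of the same library set were alike to the same degree (median 0.52), and 5 of 18 libraries correlated best with their own number. Pairs from different library sets had correlations of −0.78 to −0.24 (median −0.55), and the main model held no term for library set. Alternatives were other pseudocounts, filters, TMM scaling, edgeR 4.0.16 and DESeq2 1.42.0 on the recovered reads, a replicate block, the library set as a covariate, each library set alone and each library left out. The model was tested on simulated data. Gene positions were taken from GENCODE vM1 on mm9 and promoter sequences from RefSeq on GRCm38.p6.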

Additional observations from a re-analysis of the deposited data

Results flagged for a closer look

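The response to T3 differed between wild type and Thrb-KO for 3 members by the interaction term of the limma model. The response of Thrb-KO minus that of wild type was 2.81 on the log2 scale for Dio2, 1.37 for Slc7a8 and 0.63 for Slc3a2. In each case the fall was larger in wild type. No library stood apart from its group in any of the 36 groups of member values examined with Dixon's test, in which chance alone flags about 1 in 20.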

How the results depend on the processing

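No called value changed direction, but uncalled values of Slc7a5 and Slc3a2 did. Under replicates 3 to 5 alone the T3 response of Slc7a5 in wild type was 0.0081, its interaction −0.063 and the T3 response of Slc3a2 in Thrb-KO 0.018, and under replicates 1 and 2 alone the genotype difference of Slc7a5 in hypothyroid mice was −0.040. The genotype difference of Slc3a2 in hyperthyroid mice was −0.075 with TMM, −0.057 with edgeR, −0.061 with DESeq2, −0.011 with all transcripts summed, −9.21e-04 with the replicate block and −0.086 in replicates 1 and 2 alone. Leaving out each library gave −0.074 to 0.212 for the Slc7a5 interaction, −0.0049 to 0.281 for its hypothyroid genotype difference and −0.047 to 0.081 for the hyperthyroid genotype difference of Slc3a2. The number of members called in each comparison stayed within 1.5 times its value under each alternative, and leaving out each library in turn gave 3 to 3 for T3 in wild type, 1 to 1 for T3 in Thrb-KO, 2 to 3 for the interaction, 2 to 4 for genotype in hypothyroid mice and 1 to 1 in hyperthyroid mice. With the replicate block the counts were 3, 1, 3, 3 and 1, with Slc16a10 in place of Dio2 in hypothyroid mice, and the block changed no other member's call. The T3 response of Slc7a8 in Thrb-KO had an adjusted p of 0.00906 when its groups were fitted alone, with limma, still below 1.5-fold. The hypothyroid genotype difference of Slc16a10 was called in 15 alternatives, edgeR (−0.92) and DESeq2 (−0.92) among them. Slc3a2 fell below 1.5-fold without hypothyroid wild-type replicate 3 (interaction 0.54, genotype in hypothyroid mice −0.52) or 4 (genotype −0.58), without hyperthyroid Thrb-KO replicate 3 (interaction 0.56) and without hypothyroid Thrb-KO replicate 2 (genotype −0.58). The cause was not tested.

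The number of members with a pituitary TRβ-HAB peak was 4 within 50 kb and 6 within 100 kb (55.9% and 70.8% of main-model genes), and 0 with the stricter part of the list at 20 kb. With a cortex peak it was 2 and 5 (49.1% and 62.9% of genes), and with an ATAC peak 1 within 100 kb (18.2%). The stricter part of the ATAC list was not run, since its p-values are the authors' own comparison. The number of repeats was 4 within 100 kb, a range added after seeing the data. Over all genes, no fold limit gave 2536 calls for T3 in wild type, 235 for T3 in Thrb-KO, 901 for genotype in hypothyroid and 1586 in hyperthyroid mice, against 1244, 133, 397 and 639, and replicates 3 to 5 alone gave 628 and 1114 for the last pair. Dio3 without each wild-type library in turn differed by 0.492 to 0.714 CPM (exact p = 0.0571, the smallest possible with 3 against 4). Dio3 and Slco1c1 lay below the CPM limits of both models and were not fitted.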
